A study of Dichomitus squalens with 16 samples.

Results

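Cellobiohydrolases are the enzymes that white-rot fungi use to take crystalline cellulose apart from the ends of its chains. Here 3 of the 11410 measured genes of Dichomitus squalens were described, taken by their protein numbers, which stand at the end of the locus tags. Protein number 152125's locus tag is DICSQDRAFT_152125, and the files describe it as cellobiohydrolase II. Protein number 96488's tag is DICSQDRAFT_96488 and protein number 131122's is DICSQDRAFT_131122, and both are described as cellobiohydrolase I. All 3 had reads in every library and passed the filter on low counts.

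A cellobiohydrolase holds a cellulose chain in a tunnel and slides along it, releasing the disaccharide cellobiose at each step. Enzymes of the type I class (glycoside hydrolase family GH7 in fungi) start from the reducing end, those of type II (family GH6) from the non-reducing end, and the pair therefore works on opposite ends of the same chain. Endoglucanases and lytic polysaccharide monooxygenases open new ends inside the chain, and beta-glucosidases split the released cellobiose into glucose.

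D. squalens strain LYAD-421 SS1, a white-rot basidiomycete, was grown on 4 plant materials: sawdust of spruce, a softwood, sawdust of aspen, a hardwood, powdered wheat bran and powdered cotton seed hulls. Each flask held 1 g of the material in 100 ml of a low-nitrogen medium (LN-AS) and was started from a homogenised preculture. That preculture had grown for 4 days at 28 °C in the same medium with 6.8 mM glycerol, and these settings were the same for all groups. The groups were spruce on day 16, aspen on day 16, wheat bran on day 16, cotton seed hulls on day 16, and the same materials on day 9, with 2 libraries in each of the 8 groups. RNA was taken from the mycelium together with the material it had colonised. No group without plant material was used here, so every value compares materials or days with each other. Nothing in the labels tells whether both replicates of a group grew in their own flask, so the p-values measure the spread between these libraries, which may be technical.

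Depth was even, with group means from 8086856 ± 145560 unique reads (spruce, day 16) to 8636932 ± 297801 (cotton seed hulls, day 9; SD, n = 2 each). Levels are given as RPKM, unique reads scaled to the length of the gene model and to the reads of the library. Changes are log2 fold changes ± standard error (SE) from the edgeR quasi-likelihood test on the counts, with Benjamini-Hochberg adjustment over the 10584 genes tested. A change is called where the adjusted p is under 0.05, and a positive value means higher on the side named first. The edgeR changes are centred by TMM scaling, a correction for differences in RNA composition, and RPKM values are not, so the 2 scales can differ by a constant for each comparison. Where only library size was used for scaling, the all-gene median moved by 0.48 on the log2 scale for wood against non-woody materials on day 16, by 0.28 for the same on day 9, and by at most 0.76 (spruce against cotton seed hulls, day 16). A lower level can reflect less of a transcript per cell or fewer cells of the mycelium that make it, and the bulk RNA cannot tell these apart.

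Cellobiohydrolase II was the most abundant of the genes on average, with a mean of 256 RPKM over the 16 libraries. On day 16 its level per replicate library was 394 and 437 RPKM on spruce and 75.7 and 50.1 on aspen. The wheat bran libraries had 122 and 115 RPKM that day and the cotton seed hull libraries 374 and 368. On day 9 it was 5.76 and 7.12 RPKM on spruce and 3.06 and 3.20 on aspen, while wheat bran gave 238 and 298 and cotton seed hulls gave 755 and 856. Both woods on day 9 lay far below every other group. Aspen on day 9 rested on 34 and 37 reads, with exact Poisson 95% intervals of 23.6 to 47.5 and 26.1 to 51.0 reads that cover counting error only. On cotton seed hulls on day 9 the gene had up to 9865 reads and ranked as high as 127 among all genes by RPKM, and on aspen on day 9 as low as 9173.

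Cellobiohydrolase I gene DICSQDRAFT_96488 averaged 90.3 RPKM over the 16 libraries. On day 16 it reached 323 and 384 RPKM on spruce and 46.0 and 31.2 on aspen, while wheat bran gave 40.3 and 39.1 and cotton seed hulls gave 71.1 and 71.3. On day 9 it stood at 5.44 and 6.69 RPKM on spruce and 2.08 and 1.89 on aspen, while wheat bran gave 66.0 and 70.5 and cotton seed hulls gave 127 and 159. As with cellobiohydrolase II the day 9 woods were lowest, but the highest level was on spruce on day 16 and not on cotton seed hulls.

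Cellobiohydrolase I gene DICSQDRAFT_131122 had the lowest average, 62.3 RPKM, and the narrowest range. On day 16 it was at 159 and 213 RPKM on spruce and 12.01 and 8.13 on aspen, while wheat bran gave 4.87 and 5.36 and cotton seed hulls gave 20.5 and 20.6. On day 9 the libraries gave 10.5 and 12.4 RPKM on spruce and 4.27 and 5.29 on aspen, while wheat bran gave 26.5 and 51.8 and cotton seed hulls gave 191 and 251. Its level was high in spruce on day 16 and cotton seed hulls on day 9 and much lower elsewhere. The wheat bran libraries of day 9 had the largest ratio to each other of any group of the gene.

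**Figure D1:**
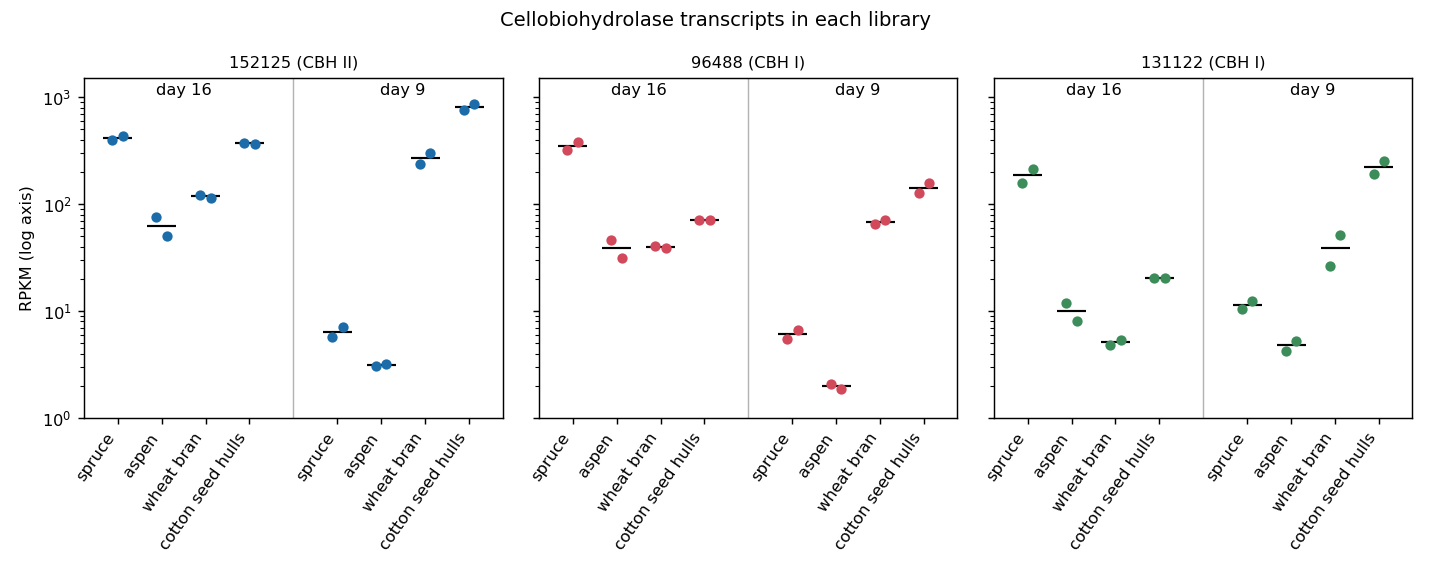
RPKM on a log axis for the 3 cellobiohydrolase genes in each library, with day 16 left of day 9 in each panel, points for libraries and bars for the mean of 2. Gene DICSQDRAFT_152125 spans 3.06 to 856 RPKM, gene DICSQDRAFT_96488 spans 1.89 to 384 and gene DICSQDRAFT_131122 spans 4.27 to 251, with spruce and aspen on day 9 at the bottom of the panels of DICSQDRAFT_152125 and DICSQDRAFT_96488.

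The group means spanned a 258-fold range for DICSQDRAFT_152125, a 178-fold range for DICSQDRAFT_96488 and a 46.2-fold range for DICSQDRAFT_131122. As a description, these spans were wider than those of 99.6%, 99.3% and 97.8% of all tested genes, whose median span was 1.49 on the log2(RPKM + 0.1) scale.

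In order of mean RPKM, the groups of DICSQDRAFT_152125 ran cotton seed hulls day 9, spruce day 16, cotton seed hulls day 16, wheat bran day 9, wheat bran day 16, aspen day 16, spruce day 9, aspen day 9. All 7 neighbouring pairs in that order passed the edgeR test. The pair spruce day 16 and cotton seed hulls day 16 passed in the opposite direction to its RPKM, as given below for that comparison. With TMM-scaled RPKM that pair changed places, and then spruce on day 16 and wheat bran on day 9, which became neighbours, did not differ beyond their spread (adjusted p = 0.0713 by edgeR).

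For DICSQDRAFT_96488 the order was spruce day 16, cotton seed hulls day 9, cotton seed hulls day 16, wheat bran day 9, wheat bran day 16, aspen day 16, spruce day 9, aspen day 9, and 6 of the 7 neighbouring pairs passed. Wheat bran and aspen on day 16 did not (adjusted p = 0.233 by edgeR), and with library size alone neither did cotton seed hulls day 16 and wheat bran day 9 (0.06, adjusted p = 0.738). For DICSQDRAFT_131122 only 3 of the 7 pairs passed. Spruce day 16 stood above wheat bran day 9, and cotton seed hulls day 16 above spruce day 9. Cotton seed hulls day 9 passed above spruce day 16 (0.76 ± 0.28, adjusted p = 0.0397), but their RPKM overlapped and with library size alone they did not pass (0.25 ± 0.28, adjusted p = 0.441). The pairs wheat bran day 9 with cotton seed hulls day 16, and each neighbouring pair among spruce day 9, aspen day 16, wheat bran day 16 and aspen day 9, did not differ beyond their spread (adjusted p of 0.166 to 0.802), although the pair wheat bran day 9 with cotton seed hulls day 16 was called with library size alone (0.93, adjusted p = 0.025).

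Wood, averaged over spruce and aspen, was set against the non-woody materials, averaged over the bran and the hulls. On day 9 all 3 genes were lower on wood, and no wood library overlapped any non-woody library. Gene DICSQDRAFT_152125 averaged 6.44 ± 0.96 RPKM on spruce and 3.13 ± 0.0979 on aspen, while wheat bran averaged 268 ± 42.4 and cotton seed hulls 805 ± 71.3 (SD, n = 2 each). That is a log2 fold change of -6.96 ± 0.15, or 125-fold (adjusted p = 1.14e-14). Gene DICSQDRAFT_96488 averaged 6.07 ± 0.884 RPKM on spruce and 1.98 ± 0.136 on aspen, while wheat bran averaged 68.2 ± 3.18 and cotton seed hulls 143 ± 22.3, which is -5.10 ± 0.14 (adjusted p = 2.43e-13). Gene DICSQDRAFT_131122 was less far apart, with 11.5 ± 1.35 RPKM on spruce and 4.78 ± 0.724 on aspen, while wheat bran averaged 39.1 ± 17.9 and cotton seed hulls 221 ± 42.5. Its change was -3.92 ± 0.25 (adjusted p = 2.71e-07).

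The background of that comparison is broad: 34.1% of all tested genes were called lower on wood on day 9, 37.4% were called higher, and 15.8% were lower with RPKM values that did not overlap. With library size alone the calls were 23.2% lower and 50.8% higher, and the 3 genes stayed lower. Each single wood was also called below each single non-woody material on day 9 for all 3 genes. Those 12 changes ran from -8.29 for DICSQDRAFT_152125 on aspen against cotton seed hulls to -2.04 for DICSQDRAFT_131122 on spruce against wheat bran, in comparisons that called 29.1% (spruce) and 30.5% (aspen) of all genes lower than on wheat bran, and 30.5% and 30.8% lower than on cotton seed hulls.

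On day 16 the same comparison split the genes. Gene DICSQDRAFT_152125 was lower on wood: spruce averaged 415.5 ± 30.1 RPKM and aspen 62.9 ± 18.1, while wheat bran averaged 118 ± 4.90 and cotton seed hulls 371 ± 4.17 (a log2 change of -0.86 ± 0.11, adjusted p = 8.26e-06). Gene DICSQDRAFT_96488 was higher: spruce averaged 353 ± 42.9 RPKM and aspen 38.6 ± 10.5, while wheat bran averaged 39.7 ± 0.791 and cotton seed hulls 71.2 ± 0.149 (0.65 ± 0.11, adjusted p = 0.000119). Gene DICSQDRAFT_131122 was also higher: spruce averaged 186 ± 38.1 RPKM and aspen 10.1 ± 2.75, while wheat bran averaged 5.11 ± 0.347 and cotton seed hulls 20.6 ± 0.0831 (1.59 ± 0.25, adjusted p = 0.000386). The libraries of wood and non-woody materials overlapped for all 3: by RPKM, spruce lay above every non-woody library, and aspen lay below or among them. Of all tested genes 29.7% were called higher and 30% lower, and with library size alone 66.5% and 10.7%. With that scaling the change of DICSQDRAFT_152125 was -0.37 and that of DICSQDRAFT_96488 was 1.13, in the same directions.

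The materials one by one show what the averages combine. On day 16 spruce exceeded wheat bran for DICSQDRAFT_152125 (log2 fold change 1.52 ± 0.16), for DICSQDRAFT_96488 (2.86 ± 0.16) and for DICSQDRAFT_131122 (4.89 ± 0.36), where 21.9% of all genes were called higher. Spruce also exceeded cotton seed hulls for DICSQDRAFT_96488 (1.54 ± 0.15) and for DICSQDRAFT_131122 (2.41 ± 0.31), with 28.2% called higher. For DICSQDRAFT_152125 spruce was called below cotton seed hulls (-0.60 ± 0.15, adjusted p = 0.00332 by edgeR), although its RPKM was higher on spruce in both libraries. That direction depends on the scaling: with library size alone the change was 0.16 (adjusted p = 0.333), so no direction is given for this pair, in which 29.6% of all genes were called lower.

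Aspen on day 16 was called below cotton seed hulls for all 3 genes, with log2 fold changes of -3.24 ± 0.17 for DICSQDRAFT_152125, -1.56 ± 0.15 for DICSQDRAFT_96488 and -1.71 ± 0.34 for DICSQDRAFT_131122, where 27.5% of all genes were called lower. With library size alone the values shrank to -2.56 for DICSQDRAFT_152125, -0.88 for DICSQDRAFT_96488 and -1.03 for DICSQDRAFT_131122, all still called. Against wheat bran, aspen was lower for DICSQDRAFT_152125 only (-1.12 ± 0.16, adjusted p = 5.69e-05, with 19.9% of genes called lower). For DICSQDRAFT_96488 the value was -0.25 ± 0.15 (adjusted p = 0.233), and without the first aspen replicate of day 16 it became -0.55 and was called (adjusted p = 0.0086). For DICSQDRAFT_131122 it was 0.77 ± 0.40 (adjusted p = 0.166), and it was called without either wheat bran library of day 9 (adjusted p of 0.0293 and 0.0298).

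**Figure D2:**
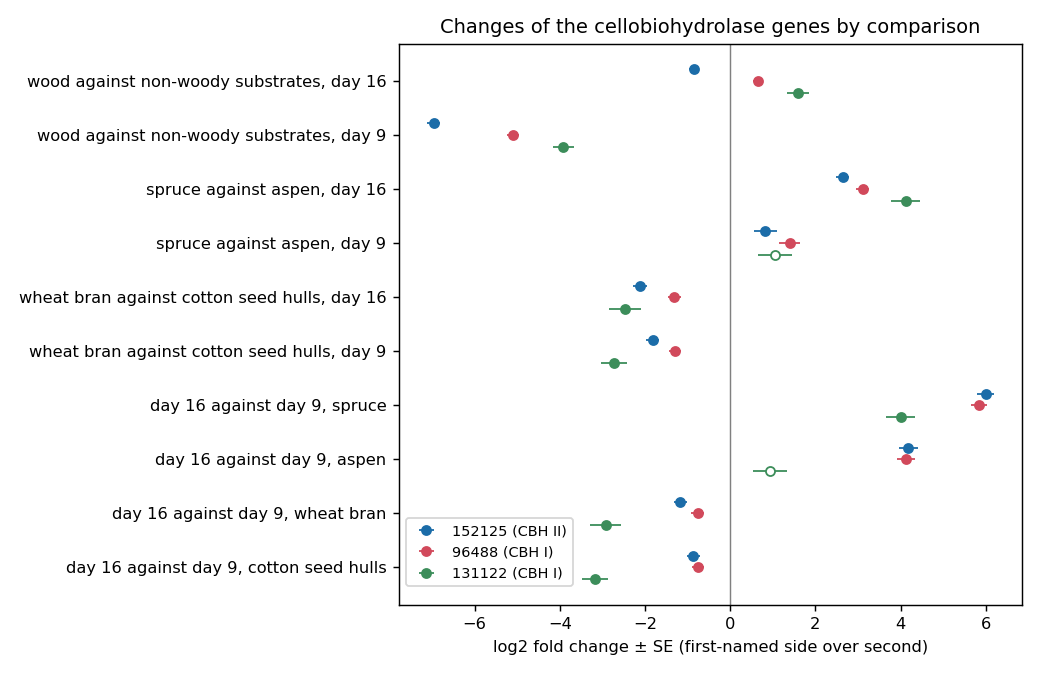
Log2 fold change ± SE (edgeR) of the 3 genes in each main comparison, where a positive value is higher on the side named first and open circles are not called. Wood lies far below non-woody materials on day 9 for all 3 genes (-6.96, -5.10 and -3.92), and day 16 lies above day 9 on spruce (5.99, 5.85 and 4.00) but below it on both non-woody materials.

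Between the woods, spruce carried more of all 3 transcripts than aspen on day 16, and no library overlapped, as was so for 38.7% of all tested genes in that direction. The log2 fold change was 2.64 ± 0.16 for DICSQDRAFT_152125 (adjusted p = 9.32e-08), 3.11 ± 0.16 for DICSQDRAFT_96488 (adjusted p = 2.01e-08) and 4.12 ± 0.34 for DICSQDRAFT_131122 (adjusted p = 3.27e-05), the last a 17.4-fold difference. Of all tested genes 11.5% were called higher on spruce and 12% lower, against 15.1% and 8.08% with library size alone. On day 9, where all levels on wood were low, DICSQDRAFT_152125 (0.82 ± 0.26, adjusted p = 0.0368) and DICSQDRAFT_96488 (1.40 ± 0.24, adjusted p = 0.00117) were called higher on spruce, and DICSQDRAFT_131122 was not (1.05 ± 0.40, adjusted p = 0.0994). There 8.26% of all genes were called higher and 13.2% lower, and with library size alone 26.3% and 6.91%. The day 9 call of DICSQDRAFT_152125 rests on few reads: it was lost when any of the 4 libraries was left out (adjusted p of 0.0674 to 0.208). The value of DICSQDRAFT_131122 was called with library size alone (1.26) and without either wheat bran library of day 9 (1.04, adjusted p of 0.0127 and 0.0128), the pair of libraries that lay furthest apart for this gene.

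Between the non-woody materials, wheat bran gave less of all 3 transcripts than cotton seed hulls on both days. The libraries did not overlap, as held in that direction for 11.3% of all tested genes on day 16 and 19.2% on day 9. On day 16 the log2 fold change was -2.12 ± 0.16 for DICSQDRAFT_152125 (adjusted p = 1.57e-07), -1.31 ± 0.15 for DICSQDRAFT_96488 (adjusted p = 1.65e-05) and -2.48 ± 0.38 for DICSQDRAFT_131122 (adjusted p = 0.000857). Of all genes 18.3% were called lower and 13% higher, but with library size alone 5.91% and 55.3%, where the change of DICSQDRAFT_96488 shrank to -0.84 and kept its call. On day 9 the changes were -1.82 ± 0.15 for DICSQDRAFT_152125 (adjusted p = 7.84e-07), -1.30 ± 0.15 for DICSQDRAFT_96488 (adjusted p = 1.93e-05) and -2.73 ± 0.30 for DICSQDRAFT_131122 (adjusted p = 0.000129). There 18.5% of genes were called lower and 15.2% higher, and with library size alone 8.82% and 31.6%.

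The change with time ran in opposite directions on wood and on the non-woody materials. On spruce, day 16 exceeded day 9 by 5.99 ± 0.20 on the log2 scale for DICSQDRAFT_152125 (63.7-fold, adjusted p = 1.4e-11), by 5.85 ± 0.19 for DICSQDRAFT_96488 (57.5-fold, adjusted p = 1.65e-11) and by 4.00 ± 0.33 for DICSQDRAFT_131122 (16.0-fold, adjusted p = 6.45e-06). Of all genes 23.6% were called higher and 27% lower on day 16 on spruce, and 36.7% were higher without overlap. On aspen the increase was 4.18 ± 0.22 for DICSQDRAFT_152125 (adjusted p = 6.13e-10) and 4.14 ± 0.21 for DICSQDRAFT_96488 (adjusted p = 8.1e-10), where 31.5% of genes were called higher and 32.1% lower. Gene DICSQDRAFT_131122 on aspen had 12.01 and 8.13 RPKM on day 16 against 4.27 and 5.29 on day 9. The days did not overlap, as for 47.2% of all genes in that direction, and the change did not pass (0.93 ± 0.41, adjusted p = 0.0719). It was called with the replicate block (0.95, adjusted p = 0.0373) and with library size alone, DESeq2, the non-robust fit, both limma fits and only the groups compared (adjusted p of 0.00572 to 0.0407). Without either wheat bran library of day 9 that value was called (adjusted p of 0.00661 and 0.0072).

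On wheat bran, day 16 was below day 9, with log2 fold changes of -1.17 ± 0.15 for DICSQDRAFT_152125 (adjusted p = 0.000111), -0.77 ± 0.15 for DICSQDRAFT_96488 (adjusted p = 0.00292) and -2.92 ± 0.36 for DICSQDRAFT_131122 (adjusted p = 0.000535), where 8.16% of all genes were called lower and 9.13% higher. With only the wheat bran libraries fitted, the value of DICSQDRAFT_131122 was -2.94 and lost its call (adjusted p = 0.0927). On cotton seed hulls the changes were -0.87 ± 0.15 for DICSQDRAFT_152125 (adjusted p = 0.0006), -0.75 ± 0.15 for DICSQDRAFT_96488 (adjusted p = 0.0017) and -3.17 ± 0.32 for DICSQDRAFT_131122 (adjusted p = 6.87e-05). There 12.7% of genes were called lower and 15.7% higher, and with library size alone 28.6% and 7.18%. Gene DICSQDRAFT_131122 fell furthest of the 3 on both non-woody materials, to 5.11 ± 0.347 RPKM on day 16 against 39.1 ± 17.9 on day 9 on wheat bran, and to 20.6 ± 0.0831 RPKM against 221 ± 42.5 on cotton seed hulls.

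Calls upward on both woods and downward on both non-woody materials were made for DICSQDRAFT_152125 and DICSQDRAFT_96488. Gene DICSQDRAFT_131122 did not have all of these calls, because its change on aspen did not pass (adjusted p = 0.0719 by edgeR). That change was called by the alternatives named above, but not with scaling by size factors or without the filter. Of the 10584 tested genes 61, or 0.576%, had that pattern of 4 calls. Among the other carriers, most of which are not named here, some were picked after their values were seen. They were the oligoxyloglucan reducing-end-specific cellobiohydrolase DICSQDRAFT_130877, the family 61 protein DICSQDRAFT_108020 and the cellobiose dehydrogenase DICSQDRAFT_153749. Other genes of related description did not have the pattern: the mannanase DICSQDRAFT_132822, both genes described as xylanases, DICSQDRAFT_100956 and DICSQDRAFT_183908.

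Whether time acted alike on wood and on the non-woody materials was tested as an interaction, the day effect of one minus that of the other. The difference was 6.11 ± 0.18 for DICSQDRAFT_152125 (adjusted p = 3.89e-12), 5.75 ± 0.18 for DICSQDRAFT_96488 (adjusted p = 8.83e-12) and 5.51 ± 0.35 for DICSQDRAFT_131122 (adjusted p = 8.48e-07), on the log2 scale. Of all genes 25.1% were called in that direction and 27.7% in the other, and with library size alone 36.4% and 18.9%. The day effect on spruce also exceeded that on aspen, by 1.81 ± 0.32 for DICSQDRAFT_152125 (adjusted p = 0.00118), 1.71 ± 0.30 for DICSQDRAFT_96488 (adjusted p = 0.00149) and 3.07 ± 0.53 for DICSQDRAFT_131122 (adjusted p = 0.00377), where 10.8% of genes were called in that direction and 8.22% in the other (7.67% and 13.4% with library size alone). Between wheat bran and cotton seed hulls none of the 3 day effects was shown to differ by edgeR, with differences of -0.30 ± 0.21, -0.01 ± 0.21 and 0.25 ± 0.48 (unadjusted p of 0.176, 0.946 and 0.617), and 9.39% of all genes were called. DESeq2 and every other alternative called none of them either. Over the 21 comparisons, 56 of the 63 tests of the 3 genes were called, against 44.3% of the tests of all genes.

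Whether the genes moved together was asked of the ratio between each pair within a library, on log2(RPKM + 0.1). Because both genes of a ratio come from the same library, the ratio is free of library scaling. Wood and non-woody materials were compared on each day, and day 16 with day 9 within each class, by two-sided exact permutation tests of 4 libraries against 4, adjusted over the 12 tests. The smallest p this design allows is 0.0286, which becomes 0.0381 after adjustment, and the replicates of a material are not independent of each other in this split. Of the 12 tests 9 passed.

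The ratio of DICSQDRAFT_96488 to DICSQDRAFT_152125 differed between wood and non-woody materials, and no difference between days passed. On day 16 it averaged -0.47 ± 0.27 on wood and -1.98 ± 0.47 on non-woody materials (SD, n = 4 each), a difference of 1.51 (adjusted exact p = 0.0381). On day 9 it averaged -0.36 ± 0.33 on wood and -2.23 ± 0.33 on non-woody materials, a difference of 1.87 (adjusted exact p = 0.0381). Between days the ratio differed by -0.11 on wood (adjusted exact p = 0.571) and by 0.26 on non-woody materials (adjusted exact p = 0.405), which did not pass. Relative to cellobiohydrolase II there was thus more DICSQDRAFT_96488 transcript on wood, at either time, while the ratio of the 2 genes stayed within a 5.61-fold range over all libraries.

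Gene DICSQDRAFT_131122 departed from both others with time. Its log2 ratio to DICSQDRAFT_152125 averaged -1.90 ± 0.85 on day 16 and 0.71 ± 0.17 on day 9 on wood (SD, n = 4 each), and -4.34 ± 0.21 on day 16 and -2.36 ± 0.62 on day 9 on non-woody materials. The day differences of -2.61 and -1.98 and the wood differences of 2.44 on day 16 and 3.07 on day 9 all passed (adjusted exact p = 0.0381 each). Against DICSQDRAFT_96488 the ratio was lower on day 16 than on day 9, with differences of -2.50 on wood and -2.23 on non-woody materials, and higher on wood than on non-woody materials by 1.19 on day 9 (adjusted exact p = 0.0381 each). The wood difference of 0.93 on day 16 did not pass (adjusted exact p = 0.206). Over all libraries the ratio of DICSQDRAFT_131122 to DICSQDRAFT_152125 covered a 44.4-fold range and that to DICSQDRAFT_96488 a 22.04-fold range. All ratios on wood on day 9 rest on low counts. There DICSQDRAFT_152125 had 34 to 82 reads per library, DICSQDRAFT_96488 had 34 to 120 and DICSQDRAFT_131122 had 55 to 166. On wheat bran on day 16 DICSQDRAFT_131122 had 67 and 73 reads.

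**Figure D3:**
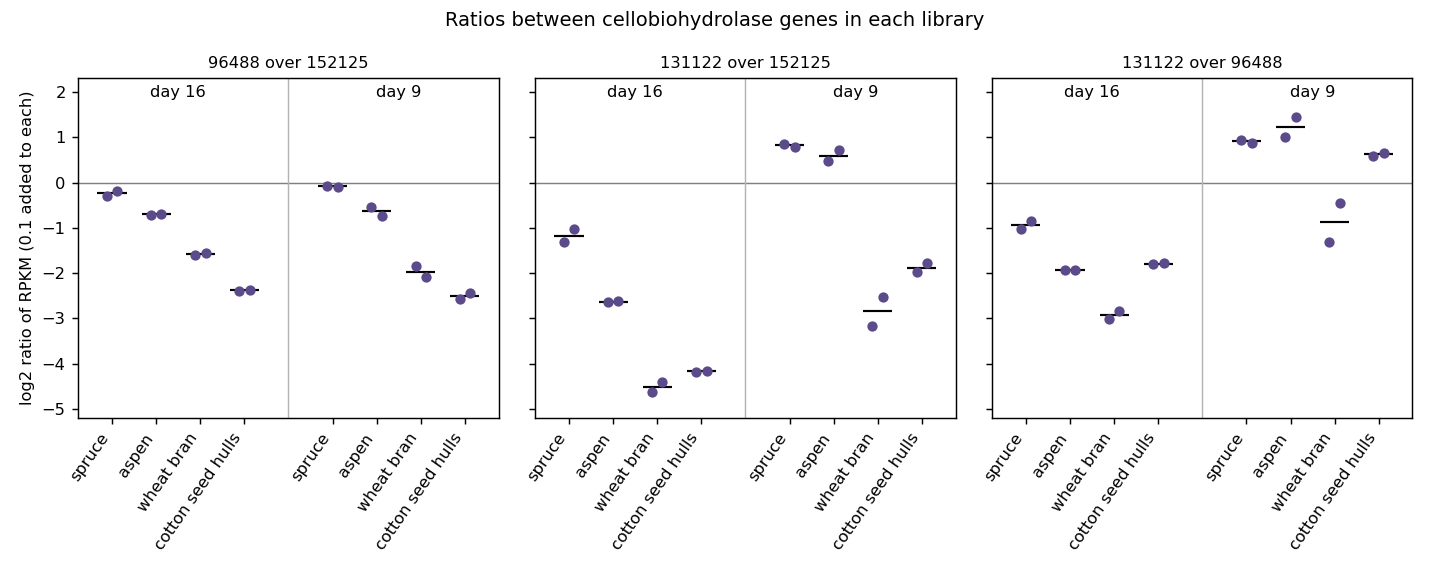
Log2 ratio of RPKM (0.1 added to each) between each pair of cellobiohydrolase genes in every library, day 16 left of day 9, points for libraries and bars for group means. The ratio of DICSQDRAFT_96488 to DICSQDRAFT_152125 is higher on wood than on non-woody materials on both days (means of -0.47 and -1.98 on day 16), and both ratios of DICSQDRAFT_131122 are lower on day 16 than on day 9.

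As shares of the summed RPKM of the 3 genes, DICSQDRAFT_152125 made up 43.6% on spruce and 56.3% on aspen on day 16, while its share was 72.5% in wheat bran and 80.2% in cotton seed hull cultures. On day 9 it made up 26.8% on spruce and 31.7% on aspen, while its share was 71.5% in wheat bran and 69.0% in cotton seed hull cultures. Gene DICSQDRAFT_131122 held the largest share on both woods on day 9, 47.9% on spruce and 48.2% on aspen, when the sum of the 3 was only 24.0 ± 3.19 RPKM on spruce and 9.89 ± 0.684 on aspen (SD, n = 2 each). The sum reached 955 ± 111 RPKM on spruce on day 16 and 1169.5 ± 136 on cotton seed hulls on day 9 (SD, n = 2 each).

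Across the 8 group means of log2(TMM-scaled CPM + 1), where CPM are counts scaled to the reads of the library, DICSQDRAFT_96488 and DICSQDRAFT_152125 had a Pearson correlation of 0.959 (Spearman 0.929). Gene DICSQDRAFT_131122 correlated with DICSQDRAFT_96488 at 0.80 (Spearman 0.857) and with DICSQDRAFT_152125 at 0.762 (Spearman 0.833). These are descriptions over 8 points that share libraries, depth and scaling, and each group is a mean of 2 libraries. Among 8195 other genes with a group mean of at least 10 RPKM, DICSQDRAFT_152125 ranked 12th in likeness to DICSQDRAFT_96488, and DICSQDRAFT_96488 ranked 14th in likeness to DICSQDRAFT_152125. Gene DICSQDRAFT_131122 ranked 984th in likeness to DICSQDRAFT_152125 and 337th in likeness to DICSQDRAFT_96488. In the other direction, DICSQDRAFT_152125 ranked 53rd and DICSQDRAFT_96488 32nd in likeness to DICSQDRAFT_131122.

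The 5 genes whose pattern was most like each member were named by the same correlation of 8 group means. A correlation takes no account of the size of a change, so these genes need not vary as widely as the member. For DICSQDRAFT_152125 they were DICSQDRAFT_102981 (r = 0.986) and DICSQDRAFT_148668 and DICSQDRAFT_52225 (r = 0.979 each), which have no informative description, with DICSQDRAFT_133555, described as an endo-1,4-beta-xylanase C precursor (r = 0.981), and DICSQDRAFT_152781, an NAD-dependent succinate aldehyde dehydrogenase (r = 0.976). For DICSQDRAFT_96488 they were the alcohol oxidase DICSQDRAFT_160546 (r = 0.982), the mannanase CEL4a DICSQDRAFT_132822 (r = 0.976), the family 43 glycoside hydrolase DICSQDRAFT_181663 and the glycoside hydrolase DICSQDRAFT_155963 (r = 0.972 each), and again the xylanase DICSQDRAFT_133555 (r = 0.97). For DICSQDRAFT_131122 they were DICSQDRAFT_136711 (r = 0.945) and DICSQDRAFT_47207 (r = 0.904), which have no informative description, the cellobiose dehydrogenase DICSQDRAFT_153749 (r = 0.936), the family 61 protein DICSQDRAFT_108020 (r = 0.923) and the NAD(P)-binding protein DICSQDRAFT_131032 (r = 0.912). No gene stands in the list of both DICSQDRAFT_131122 and another member. By Spearman correlation 2, 1 and 1 of the 5 names remained for DICSQDRAFT_152125, DICSQDRAFT_96488 and DICSQDRAFT_131122.

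Another 3 genes carry cellobiohydrolase in their description. Gene DICSQDRAFT_100956, also described as cellobiohydrolase I, had 34.7 ± 1.62 RPKM on spruce on day 16 and 2.10 to 6.09 RPKM as the mean of each other group. It rose with time on spruce (3.25 ± 0.20, adjusted p = 1.54e-09) and on aspen (1.40 ± 0.26, adjusted p = 0.000151) and did not pass on wheat bran (0.03 ± 0.25) or cotton seed hulls (-0.26 ± 0.26). On cotton seed hulls it had 2.76 ± 0.549 RPKM on day 16 and 3.94 ± 0.45 on day 9. Genes DICSQDRAFT_130877 and DICSQDRAFT_183908 are described as oligoxyloglucan reducing-end-specific cellobiohydrolases, a type of enzyme that acts on xyloglucan, a hemicellulose. Gene DICSQDRAFT_130877 had 109 ± 0.747 RPKM on spruce on day 16 against 5.22 ± 0.303 on day 9, and rose there by 4.37 ± 0.13 (adjusted p = 2.02e-13). Gene DICSQDRAFT_183908 varied only 1.97-fold over the group means and was lower on day 16 than on day 9 on spruce (-0.40 ± 0.09, adjusted p = 0.00178).

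Endoglucanases, which cut inside cellulose chains, were counted as 12 genes by description. Among them are a family 5 and a family 12 glycoside hydrolase and genes described as barwin-like, and whether each cuts cellulose was not tested. On day 16 against day 9, 9 of the 12 were called higher on spruce and 0 lower, with a median log2 fold change of 2.41, against -0.01 for all genes, of which 23.6% were called higher and 27% lower. On aspen 9 were called higher and 2 lower (median 1.38, against 0.03 for all genes, of which 31.5% were called higher and 32.1% lower), with library size alone 9 and 0 (38.0% and 26.4% of all genes). On wheat bran 1 was called higher and 3 lower (median -0.33), where 9.13% of all genes were called higher and 8.16% lower. On cotton seed hulls 3 were called higher and 3 lower (median 0.13), where the shares of all genes were 15.7% and 12.7%. On day 9, 9 of the 12 were called lower on wood than on non-woody materials and 1 higher, against 34.1% and 37.4% of all genes. That gene is DICSQDRAFT_148824, described as barwin-like and named after its values were seen, which was higher on wood on day 9 (2.17 ± 0.07) and on day 16 (1.98 ± 0.07). The most abundant were DICSQDRAFT_47249 and DICSQDRAFT_49028, both also described as barwin-like. Gene DICSQDRAFT_47249 had 5194 ± 94.2 RPKM on spruce on day 16 against 2451 ± 330 on day 9 (1.07 ± 0.13, adjusted p = 3.43e-06), and gene DICSQDRAFT_49028 had 1430 ± 6.94 RPKM against 1327 ± 238 there (0.09 ± 0.13, adjusted p = 0.579).

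The 3 lytic polysaccharide monooxygenases, described as family 61 proteins, break cellulose chains by oxidation. All 3 were called higher on day 16 than on day 9 on spruce (median 4.29) and on aspen (median 1.46). Of all genes, 23.6% were called higher and 27% lower on spruce (median -0.01), and 31.5% and 32.1% on aspen (median 0.03). Wheat bran gave 1 lower call and cotton seed hulls gave 2. There 8.16% and 12.7% of all genes were called lower, and 9.13% and 15.7% higher. Gene DICSQDRAFT_166212 had 211 ± 22.8 RPKM on spruce and 26.5 ± 3.86 on aspen on day 16, while wheat bran averaged 1.82 ± 1.08 and cotton seed hulls 1.11 ± 0.486, a wood difference of 5.22 ± 0.18 (adjusted p = 2.02e-13). On day 9 its wood difference was -0.54 ± 0.24 (adjusted p = 0.0511). Gene DICSQDRAFT_108020 had 102 ± 6.56 RPKM on spruce on day 16 and 60.1 ± 2.04 on cotton seed hulls on day 9, the same 2 groups in which DICSQDRAFT_131122 was high. Gene DICSQDRAFT_140533 had 56.8 ± 14.1 RPKM on spruce on day 16 against 2.85 ± 0.326 on day 9 (4.29 ± 0.20, adjusted p = 4.81e-11).

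Cellobiose dehydrogenase (DICSQDRAFT_153749), which oxidises cellobiose and passes electrons to these monooxygenases, averaged 95.04 ± 1.37 RPKM on spruce on day 16 against 9.16 ± 0.267 on day 9 (3.36 ± 0.15, adjusted p = 6.7e-11). On cotton seed hulls it had 24.6 ± 1.98 RPKM on day 16 against 55.2 ± 1.67 on day 9 (-0.91 ± 0.13, adjusted p = 0.00011). The mannanase DICSQDRAFT_132822, which cuts the glucomannan that is abundant in softwood, had 396 ± 8.53 RPKM on spruce on day 16 against 8.05 ± 1.40 on day 9 (5.61 ± 0.13, adjusted p = 1.16e-14). It was lower on wood than on non-woody materials on day 9 (-4.56 ± 0.09, adjusted p = 1.39e-16) and did not pass on day 16 (0.13 ± 0.07, adjusted p = 0.123). Of the 2 genes described as xylanases, DICSQDRAFT_133555 had 140 ± 0.583 RPKM on spruce on day 16 against 2.02 ± 0.476 on day 9 (6.10 ± 0.14, adjusted p = 9.25e-15). The other, DICSQDRAFT_133554, stayed between 3.60 and 12.6 RPKM as a group mean and was called higher on day 16 on spruce (0.85 ± 0.33, adjusted p = 0.0478).

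The 6 beta-glucosidases, which release glucose from cellobiose, had medians nearer to 0. On day 16 against day 9 they had 3 higher and 1 lower on spruce (median 0.38), 3 higher and 1 lower on aspen (median 0.31), 1 higher and 3 lower on wheat bran (median -0.50) and 1 higher and 1 lower on cotton seed hulls (median -0.12). Of all genes, 23.6% were called higher and 27% lower on spruce, 31.5% and 32.1% on aspen, 9.13% and 8.16% on wheat bran and 15.7% and 12.7% on cotton seed hulls. Wood against non-woody materials on day 16 gave 3 higher and 2 lower, where 29.7% of all genes were called higher and 30% lower. With library size alone it gave 5 higher and 0 lower, against 66.5% and 10.7% of all genes. The most abundant, DICSQDRAFT_64087, had 137 ± 4.37 RPKM on spruce and 119 ± 35.7 on aspen on day 16, against 35.7 ± 8.12 on spruce and 28.8 ± 2.41 on aspen on day 9 (1.93 ± 0.18 and 1.92 ± 0.18, adjusted p = 2.49e-06 and 1.7e-06). It did not separate the woods on day 16 (0.11 ± 0.17, adjusted p = 0.696). Gene DICSQDRAFT_176390 was lower on day 16 than on day 9 on all 4 materials, with changes of -0.54 ± 0.12 on spruce to -1.32 ± 0.12 on aspen.

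**Figure D4:**
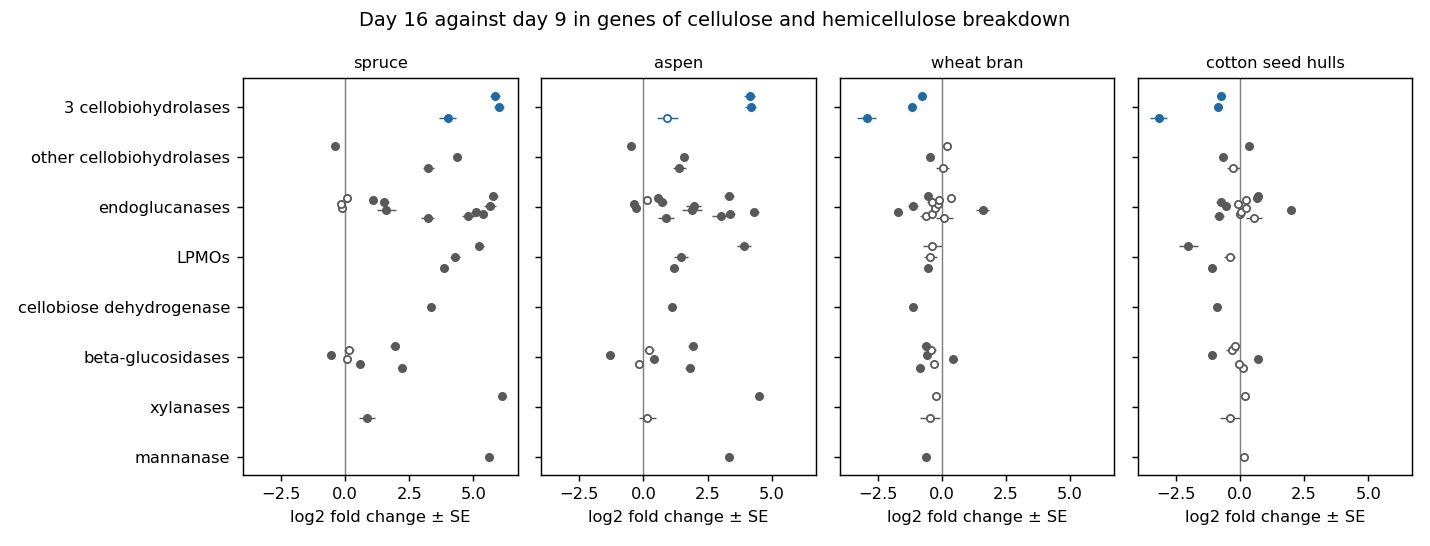
Log2 fold change ± SE of day 16 against day 9 on each material for the 3 cellobiohydrolases, in blue, and for the other genes of cellulose and hemicellulose breakdown, with open circles not called. On spruce most groups lie to the right of 0, up to 6.10 for a xylanase, and on both non-woody materials most points lie near 0 with DICSQDRAFT_131122 the lowest at -2.92 and -3.17.

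Of 147 genes described as general substrate or sugar transporters, 60 were called higher and 29 lower on day 16 on spruce (23.6% and 27% of all genes), and 71 higher and 37 lower on aspen (31.5% and 32.1% of all genes). On wheat bran 15 were called higher and 21 lower (9.13% and 8.16% of all genes), and on cotton seed hulls 37 higher and 13 lower (15.7% and 12.7% of all genes). With library size alone the counts on cotton seed hulls turned to 18 and 21 (7.18% and 28.6% of all genes). The most abundant, DICSQDRAFT_94114, had 1650 ± 34.2 RPKM on spruce on day 16 against 350 ± 98.3 on day 9 (2.22 ± 0.18, adjusted p = 1.03e-07). Gene DICSQDRAFT_110689, the next, had 624 ± 12.1 RPKM on spruce on day 16 against 472 ± 81.4 on day 9 (0.39 ± 0.14, adjusted p = 0.0291).

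A list of 16 genes was gathered by cytoskeleton, elongation factor and glyceraldehyde-3-phosphate dehydrogenase descriptions, classes from which reference genes are often taken. It also holds an actinin-like protein and actin depolymerizing proteins, and whether each gene is a suitable reference was not tested. On day 16 against day 9, 0 were called higher and 9 lower on spruce (median -0.34), where 27% of all genes were called lower. On aspen 1 was called higher and 8 lower (median -0.25), where 32.1% of all genes were called lower. On wheat bran 1 was called higher and 0 lower, against 9.13% and 8.16% of all genes. On cotton seed hulls 3 were called higher and 1 lower, against 15.7% and 12.7% of all genes. With library size alone the counts on cotton seed hulls turned to 0 and 9, against 7.18% and 28.6% of all genes. Translation elongation factor 1a (DICSQDRAFT_46769) had 1646 ± 99.3 RPKM on spruce on day 16 against 2957 ± 81.0 on day 9 (-0.86 ± 0.10, adjusted p = 2.01e-06). Actin 1 (DICSQDRAFT_141804) had 1384 ± 18.8 RPKM on spruce on day 16 against 2050 ± 41.0 on day 9 (-0.58 ± 0.09, adjusted p = 3.74e-05). The part of these shifts in the rise of the cellobiohydrolases on spruce was not tested.

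The reads of DICSQDRAFT_96488 covered less of its gene model than those of the other members. Its coverage never exceeded 79.1%, and on spruce on day 16, with 5634 and 6524 reads, it was at most 75.4%. Gene DICSQDRAFT_152125 reached 99.9% and gene DICSQDRAFT_131122 reached 99.0%. Among genes with at least 500 reads in a library, the median coverage was 98.7% to 99.1%, and 2.58% to 4.16% of them were covered at less than 80%. RPKM divides by the whole model length of 2130 bases, covered or not. Set per covered kilobase, DICSQDRAFT_96488 on spruce on day 16 stood at 488 ± 84.6 against 353 ± 42.9 RPKM as deposited, and at 416 ± 29.9 for DICSQDRAFT_152125. With that measure it stood above DICSQDRAFT_152125 there and not below it. Its edgeR changes between groups do not depend on the model length. Per covered kilobase its changes would shift, because its mean coverage ran from 38.2% on aspen on day 9 to 77.9% on cotton seed hulls on day 16.

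**Figure D5:**
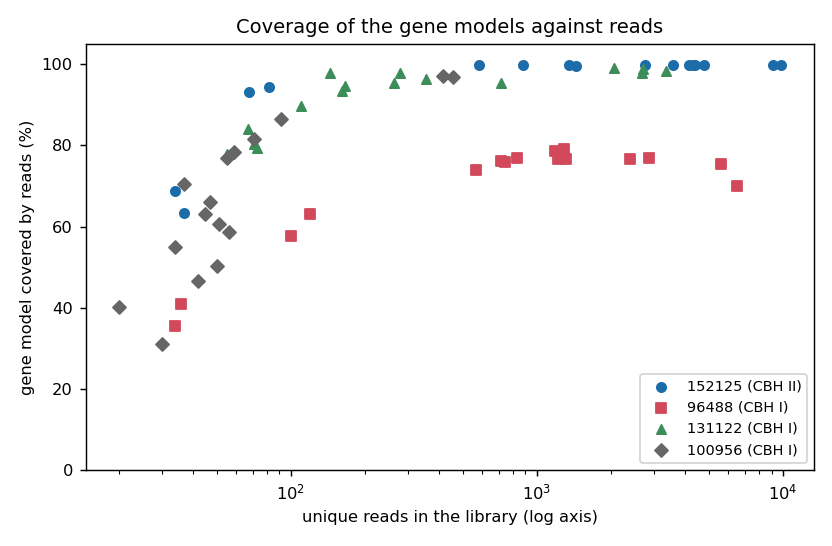
Deposited coverage of the gene model, in percent, against unique reads per library on a log axis for the 3 genes and for DICSQDRAFT_100956, another gene described as cellobiohydrolase I. Genes DICSQDRAFT_152125 and DICSQDRAFT_131122 level off near 99.9% and 99.0%, while DICSQDRAFT_96488 levels off below 79.1%.

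The authors counted unique reads, and whether the genes described as cellobiohydrolase I share stretches long enough to lose reads was not tested here. The labels do not say whether the libraries keep the strand. In the reference list of genes, no gene next to the 3 members overlaps them. The 5 measured neighbours varied 1.75-fold to 3.23-fold over the group means, against 258-fold, 178-fold and 46.2-fold for the cellobiohydrolases.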

How the data were processed

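RNA sequencing of 16 libraries of D. squalens was analysed. Per the file headers, the deposited tables give for each gene model the unique read count, the RPKM and the coverage as the percent of the model's length, and gene descriptions from a search of the nr protein database. Checked on the values, the deposited counts were whole numbers that summed to the total in each header, and RPKM recomputed from them equalled the RPKM given by the authors. Which aligner, counter and build made the counts is not given in the sources used here. Genes not listed in a library were taken as 0 reads. Of 11410 protein numbers, 11371 matched a RefSeq locus tag, the 3 cellobiohydrolases among them. The tag was used only for names and to find the neighbouring genes in the reference list. The start and end positions in that list were used only to see whether neighbours overlap the members.

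Counts were tested with edgeR 4.0.16 in R 4.3.3: filterByExpr (minimum count 10, minimum total 15) left out 826 genes and kept 10584, with TMM scaling, 1 mean per group, robust quasi-likelihood fits to all 16 libraries (8 residual degrees of freedom, common biological coefficient of variation 0.0982), 21 two-sided contrasts and Benjamini-Hochberg adjustment over all genes tested. The script was tested on simulated data. Ratios between members were tested with SciPy 1.17.1. Alternatives were scaling by size factors or by library size alone, no filter, a non-robust fit, DESeq2 1.42.0, limma 3.58.1 on log2 RPKM with 1 or 0.1 added, a fit of the compared groups alone, a replicate block and leaving out each library. The level of DICSQDRAFT_96488 per covered kilobase and the test of neighbouring groups with library size alone were added after seeing the data.

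The 3 members and the gene lists were chosen with earlier results of these data known, so no list is independent evidence of its direction. The rule named all 3 members, the 2 members of each list with the highest mean RPKM (all members where a list had 3 or fewer) and the 5 genes most like each member. Lists of carbohydrate-binding module proteins and of carbon catabolite repression regulators matched no description. The depth of 7983930 to 8847509 reads leaves the levels on wood on day 9 resting on as few as 34 reads for a gene, and the Poisson intervals given cover counting error only.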

Additional observations from a re-analysis of the deposited data

Results flagged for a closer look

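For each of the 3 cellobiohydrolase genes the effect of time differed between substrates, as tested by the interaction term of the edgeR fit. Such calls were common: the day effect on wood was called above that on non-woody materials for 25.1% of all tested genes. It was called below for 27.7%. The day 16 against day 9 effect on wood minus that on the non-woody materials was 6.11 ± 0.18 for DICSQDRAFT_152125 (adjusted p = 3.89e-12), 5.75 ± 0.18 for DICSQDRAFT_96488 (adjusted p = 8.83e-12) and 5.51 ± 0.35 for DICSQDRAFT_131122 (adjusted p = 8.48e-07), on the log2 scale.

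The day effect on spruce minus that on aspen was 1.81 ± 0.32 for DICSQDRAFT_152125 (adjusted p = 0.00118), 1.71 ± 0.30 for DICSQDRAFT_96488 (adjusted p = 0.00149) and 3.07 ± 0.53 for DICSQDRAFT_131122 (adjusted p = 0.00377). In that direction 10.8% of all tested genes were called, and 8.22% in the other (7.67% and 13.4% with library size alone). For DICSQDRAFT_131122 the day effect on aspen alone did not pass the threshold. Groups of 2 libraries are too small to look for single libraries that stand apart.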

How the results depend on the processing

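Over 9 alternatives other than leaving out libraries, 539 of 567 values of the 3 genes in 21 comparisons kept direction and side of the threshold, as did 992 of 1008 with a library left out.

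For DICSQDRAFT_152125, spruce against cotton seed hulls on day 16 turned from -0.60 to 0.164 with library size alone and to 0.161 and 0.162 with limma on RPKM (1 and 0.1 added). Spruce against aspen on day 9 lost its call with the replicate block (0.824, adjusted p = 0.0531) and with only the groups compared (0.834, adjusted p = 0.11), and lay between 0.657 and 0.975 with 1 library left out.

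For DICSQDRAFT_131122, spruce against aspen on day 9 gained a call with library size alone (1.261), DESeq2 (1.019), the non-robust fit (1.045), limma (1.113 and 1.251) and only the groups compared (1.054), and lay between 0.85 and 1.259 with 1 library left out. Aspen against wheat bran on day 16 gained one with DESeq2 (0.767), limma (0.835 and 0.939) and only the groups compared (0.79), between 0.474 and 1.018 with 1 library left out. Day 16 against day 9 on aspen gained one with library size alone (1.072), DESeq2 (0.908), the non-robust fit (0.929), the replicate block (0.952), limma (0.921 and 1.041) and only the groups compared (0.937), between 0.628 and 1.173 with 1 library left out. On wheat bran it lost its call with only the groups compared (-2.936, adjusted p = 0.0927). Its day effect on wheat bran minus that on cotton seed hulls ran from -0.151 to 0.811 with 1 library left out.

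For DICSQDRAFT_96488, the day effect on wheat bran minus that on cotton seed hulls, near 0 throughout, changed sign with library size alone (0.224), DESeq2 (0.0), limma (0.221 and 0.217) and only the groups compared (0.012), and ran from -0.181 to 0.157 with 1 library left out. Aspen against wheat bran on day 16 ran from -0.545 to -0.001. The causes were not tested.

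The log2 ratio of DICSQDRAFT_96488 to DICSQDRAFT_152125 changed sign per covered kilobase, an alternative chosen after seeing the data: to 0.222 against -0.238 as deposited on spruce on day 16, to 0.548 against -0.086 on spruce on day 9 and to 0.136 against -0.659 on aspen on day 9. The day 9 values rest on few reads. On aspen a mean of 35.0 reads covered 38.2% of DICSQDRAFT_96488, and 35.5 reads covered 66.1% of DICSQDRAFT_152125. At such counts coverage cannot tell few reads from a gene model that is too long. With 1 library left out, the exact test of the ratios can reach no p below 0.0571, so no ratio difference can pass. For DICSQDRAFT_96488 to DICSQDRAFT_152125 the wood difference then ran from 1.367 to 1.648 on day 16 and from 1.762 to 2.0 on day 9. For DICSQDRAFT_131122 to DICSQDRAFT_152125 it ran from 2.149 to 2.685 on day 16 and from 2.8 to 3.264 on day 9, and the day difference from -2.895 to -2.359 on wood and from -2.244 to -1.78 on non-woody materials. For DICSQDRAFT_131122 to DICSQDRAFT_96488 the wood difference ran from 0.799 to 1.457 on day 9, and the day difference from -2.691 to -2.331 on wood and from -2.628 to -1.971 on non-woody materials.

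The replicate numbers do not pair the samples: over 28 pairs of groups the deviations of same-numbered libraries correlated at -0.0652 to 0.425 (median 0.0254), with 1 over 0.1. The replicate block changed no other call of the 3 genes than those given.

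Counts of all genes called moved by more than 1.5 times in these cases. Wheat bran against cotton seed hulls on day 16 called 3320, against 6474 with library size alone, 6633 and 6551 with limma (0.1 and 1 added) and 2108 to 2148 without 1 library. On day 9 it called 3574, against 2239 without 1 library. Spruce against aspen called 2483 on day 16, against 1306 to 1620 without 1 library, and 2266 on day 9, against 3511 with library size alone, 376 with only the groups compared and 1287 without 1 library. Day 16 against day 9 called 1830 on wheat bran, against 3191 with only the groups compared and 878 to 1132 without 1 library, and 3003 on cotton seed hulls, against 1798 to 1799. The day effect on spruce minus that on aspen called 2013, against 967 with only the groups compared. The day effect on wheat bran minus that on cotton seed hulls called 994, against 1628 with library size alone, 1608 and 1534 with limma, 2271 with only the groups compared and 538 to 645 without 1 library. Of the 5 genes most like each member, 2, 3 and 4 remained with library size alone for DICSQDRAFT_152125, DICSQDRAFT_96488 and DICSQDRAFT_131122.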
